A study of Mus musculus with 6 samples.

Results

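The genes described here are Tfcp2l1, Actn2, Aqp3, Rad51ap2, Gm48482 and Gm10167. All had large differences between adrenal glands of mice lacking Armc5 and wild-type adrenal glands. They are 6 of the 59699 loci in the deposited count table, of which 53103 carry a gene name. They were chosen by their counts in this same contrast, for large and steady rises without Armc5, from genes outside neural and cilium families. Their levels are therefore given as a description and no test is attached to them. Whole-adrenal RNA was sequenced from 3 knockout (KO, genotype Armc5-/-) and 3 wild-type (WT) samples. Every sample was from a female of 30 weeks, with 129 sv X CD1 as the strain background. The labels do not say which part of Armc5 is deleted, or whether samples came from different animals. The p-values below therefore measure the spread between these samples, which may be technical.

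Armc5 encodes an armadillo-repeat protein that recruits substrates to a cullin-based ubiquitin ligase, and loss of ARMC5 in humans is known for nodular enlargement of the adrenal cortex. The named genes belong to no single pathway. Tfcp2l1 encodes a CP2-family transcription factor known from naive pluripotent stem cells and from kidney collecting duct. Aqp3 encodes a membrane channel that passes water and glycerol and is found in the basolateral membrane of many epithelia. Actn2 encodes the alpha-actinin that crosslinks actin in the Z-discs of heart and skeletal muscle. Rad51ap2 encodes a protein of homologous recombination, the repair of DNA breaks by copying from a matching strand, and is known from the testis. Gm10167 is annotated as a processed pseudogene. Gm48482 is annotated as TEC, a class of transcribed loci that still await experimental checks, and no function is given for it here.

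Armc5 itself had 395, 269 and 473 counts in the KO libraries, against 2763, 3263 and 2233 counts in the WT libraries. Its level was 3.59 ± 0.0633 CPM in KO and 26.8 ± 1.35 CPM in WT (SD, n = 3 each), 7.47-fold lower in KO (edgeR quasi-likelihood test, adjusted p = 0.00041). CPM stands for counts scaled to a common library size (the usual CPM of named loci, with TMM factors). Total counts were 70547288 to 122924298 in KO and 89806230 to 130573434 in WT. Deposited counts piled up at 3, 6, 9, 11 and 14 in 6 of 6 libraries, so 1 read pair added close to 3 counts. The tissue markers fitted the label, since 7 adrenal cortex genes summed to 30800 to 36100 CPM in KO and 40600 to 68500 CPM in WT. Hepatocyte genes stood apart in 1 library: 6 of them summed to 3330 CPM in KO replicate 3 and to 17.1 to 61.7 CPM in the other libraries. In whole tissue, fewer cells of a type and less RNA per cell cannot be told apart.

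Sequence before the RefSeq transcription start (GRCm38.p6) was found for 4 of the 6 genes and is shown because these genes had higher counts in KO together. Each line gives the 150 bases that end just before the start, on the gene's strand, with capitals marking a TATA box (TATAAA), a GC box (GGGCGG or its reverse complement) or an E-box (CACGTG).
Tfcp2l1: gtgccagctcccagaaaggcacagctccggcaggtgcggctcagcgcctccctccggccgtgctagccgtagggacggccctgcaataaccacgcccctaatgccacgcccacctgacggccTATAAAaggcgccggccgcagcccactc
Aqp3: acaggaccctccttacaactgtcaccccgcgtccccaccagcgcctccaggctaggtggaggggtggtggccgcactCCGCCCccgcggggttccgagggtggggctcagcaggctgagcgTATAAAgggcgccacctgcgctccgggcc
Rad51ap2: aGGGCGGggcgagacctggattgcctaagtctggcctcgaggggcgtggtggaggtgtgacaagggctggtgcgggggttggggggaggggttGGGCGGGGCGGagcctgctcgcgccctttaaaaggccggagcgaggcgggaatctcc
Actn2: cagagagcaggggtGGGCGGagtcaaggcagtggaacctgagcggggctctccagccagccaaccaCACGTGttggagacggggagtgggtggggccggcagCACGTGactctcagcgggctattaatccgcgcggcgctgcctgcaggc
The stretches lie at chr1:118627795-118627944 on the plus strand for Tfcp2l1, chr4:41098184-41098333 on the minus strand for Aqp3, chr12:11455905-11456054 on the plus strand for Rad51ap2 and chr13:12340733-12340882 on the minus strand for Actn2.

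Both Tfcp2l1 and Aqp3 had TATAAA close to the start, with its first base at -28 and -29, a motif held on either strand by 13.6% of 32851 mouse promoters of 300 bases. Rad51ap2 had GGGCGG at -149, -57 and -52, the last 2 overlapping by 1 base, while Aqp3 had it at -73 on the opposite strand and Actn2 at -136 and, past the printed stretch, at 39 bases after the start on the opposite strand. GGGCGG was held by 35.7% of promoters. Actn2 alone among the 4 held CACGTG, at -84 and -48, against 7.15% of promoters. Neither CCAAT, held by 37.4% of promoters, nor the cAMP response element TGACGTCA, held by 1.79%, was in any of the 4 windows of 300 bases. The windows had 19 to 26 CpG dinucleotides, against a median of 7 over all promoters, and 71.9% to 83.1% of promoters had fewer. A match is a stretch of letters and says nothing of binding.

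Tfcp2l1 was the most abundant of the 6 genes. It lies at chr1:118627945-118685168 on the plus strand (GRCm38, as for all loci below), in a row that also carries the name Gm23497. It had 7227, 4748 and 8255 counts in the KO libraries, against 731, 856 and 467 in the WT libraries. At 65.5, 62.3 and 63.8 CPM in KO and 7.22, 6.63 and 5.82 CPM in WT, the libraries of each group lay close together and the groups did not overlap. The means were 63.9 ± 1.57 CPM in KO and 6.56 ± 0.702 CPM in WT (SD, n = 3 each), a ratio of 9.74. The lowest KO library was 8.63 times the highest WT library. Of the 6 genes, Tfcp2l1 was not near silent in WT: per kilobase of locus length its WT level of 0.695 CPM was above that of 35.0% of the 21358 tested loci, and its KO level of 6.77 CPM was above that of 77.4%.

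Aqp3, at chr4:41092722-41098183 on the minus strand, had 358, 277 and 313 counts in the KO libraries, against 5, 21 and 4 in those of WT. The levels were 3.24, 3.64 and 2.42 CPM in KO and 0.0494, 0.163 and 0.0499 CPM in WT. WT replicate 2 was the highest WT library, and the groups did not overlap. Means were 3.1 ± 0.621 CPM in KO and 0.0873 ± 0.0652 CPM in WT (SD, n = 3 each), a ratio of 35.5. The lowest KO library was 14.9 times the highest WT library, and the 95% counting interval of the ratio of summed levels was 16.7 to 65.4. Such intervals were computed on approximate read pairs and cover counting error only. Without WT replicate 2 the fitted log2 difference of Aqp3 was 5.95, against 5.07 with all libraries.

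Actn2, at chr13:12269426-12340760 on the minus strand, was at 0 counts in each WT library. The KO libraries had 314, 106 and 263 counts, or 2.84, 1.39 and 2.03 CPM. KO replicate 2 was the lowest and KO replicate 1 the highest, and the groups did not overlap. With a floor of 9 counts over the WT group, close to 3 read pairs, put in place of 0, the ratio of Actn2 was 74.6. The 95% counting interval with that floor was 25.2 to 365. It treats the floor as counts that were seen, so it describes the floor and not the WT libraries. Its KO mean was 2.09 ± 0.728 CPM (SD, n = 3).

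Rad51ap2, at chr12:11456079-11462928 on the plus strand, had 432, 296 and 378 counts in the KO libraries, against 21, 25 and 22 in those of WT. The levels were 3.91, 3.89 and 2.92 CPM in KO and 0.207, 0.194 and 0.274 CPM in WT, with KO replicate 3 the lowest KO library and no overlap. Means were 3.57 ± 0.565 CPM in KO and 0.225 ± 0.0431 CPM in WT (SD, n = 3 each), a ratio of 15.9. For the summed levels the 95% counting interval ran from 10.3 to 25.2.

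**Figure D1:**
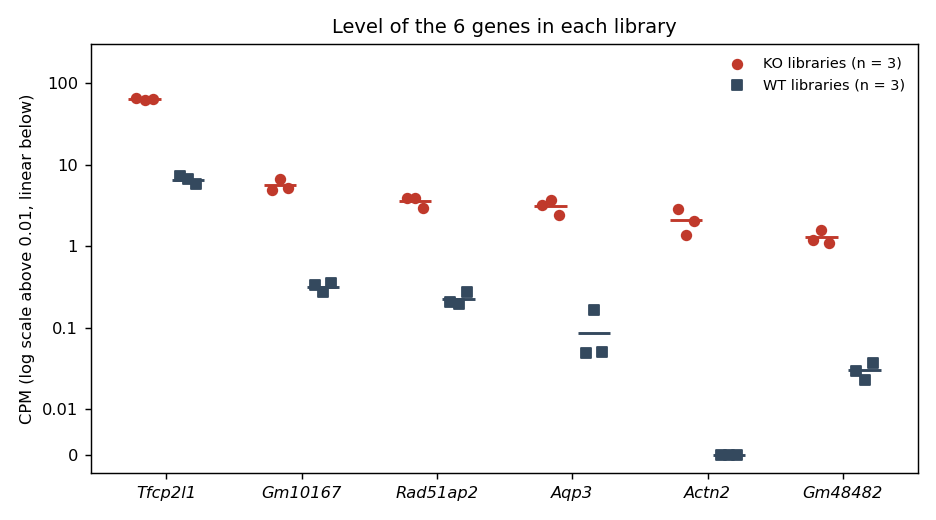
Level in CPM (vertical axis, logarithmic above 0.01 and linear below) of each of the 6 genes in the 3 KO libraries (red circles) and the 3 WT libraries (dark squares), with a bar at each group mean. No gene's groups overlap, Tfcp2l1 averages 6.56 CPM in WT, and Actn2 is at 0 in all WT libraries.

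Gm48482 was the lowest of the 6 in KO. It spans chr12:14128116-14130648 on the minus strand and had 132, 120 and 141 counts in the KO libraries, against 3, 3 and 3 in WT, about 1 read pair a library. The KO levels were 1.2, 1.58 and 1.09 CPM and the WT levels 0.0296, 0.0232 and 0.0374 CPM, without overlap. The means were 1.29 ± 0.255 CPM in KO and 0.0301 ± 0.0071 CPM in WT (SD, n = 3 each), a ratio of 42.8. With so few WT counts, the 95% counting interval of the ratio of summed levels was wide, at 14.4 to 211.0.

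Gm10167, at chr5:148182899-148184377 on the minus strand, had 544, 511 and 674 counts in the KO libraries, against 34, 35 and 28 in those of WT. The levels were 4.93, 6.71 and 5.21 CPM in KO and 0.336, 0.271 and 0.349 CPM in WT. Every KO library was at least 14.1 times every WT library. Means were 5.61 ± 0.956 CPM in KO and 0.319 ± 0.0418 CPM in WT (SD, n = 3 each), a ratio of 17.6. For the summed levels the 95% counting interval ran from 12.4 to 26.1.

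A separation of all KO libraries above all WT libraries was in itself common, at 16.3% of the tested loci. The SD over the KO libraries ranged from 2.47% of the mean for Tfcp2l1 to 34.9% for Actn2. Among tested loci within 1.5-fold of the same KO mean, 10.2% had a lower percentage than Tfcp2l1 and 81.7% a lower one than Actn2. Steadiness was part of the choice of genes, so these shares are a description and no test. Per kilobase of locus length, the KO levels of the 5 genes other than Tfcp2l1 were 3.8 CPM for Gm10167, 1.69 CPM for Aqp3, 1.13 CPM for Rad51ap2, 0.551 CPM for Actn2 and 0.508 CPM for Gm48482. In KO replicate 3, the library with hepatocyte signal, each of the 6 genes was above every WT library. The choice of genes with steady rises set this outcome, so it and the fits without this library are no test. Without KO replicate 3, the fitted log2 differences were 3.28 for Tfcp2l1, 5.22 for Aqp3, 4.12 for Rad51ap2, 5.5 for Gm48482 and 4.19 for Gm10167. With all libraries they were 3.28 for Tfcp2l1, 5.07 for Aqp3, 3.99 for Rad51ap2, 5.39 for Gm48482 and 4.14 for Gm10167.

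**Figure D2:**
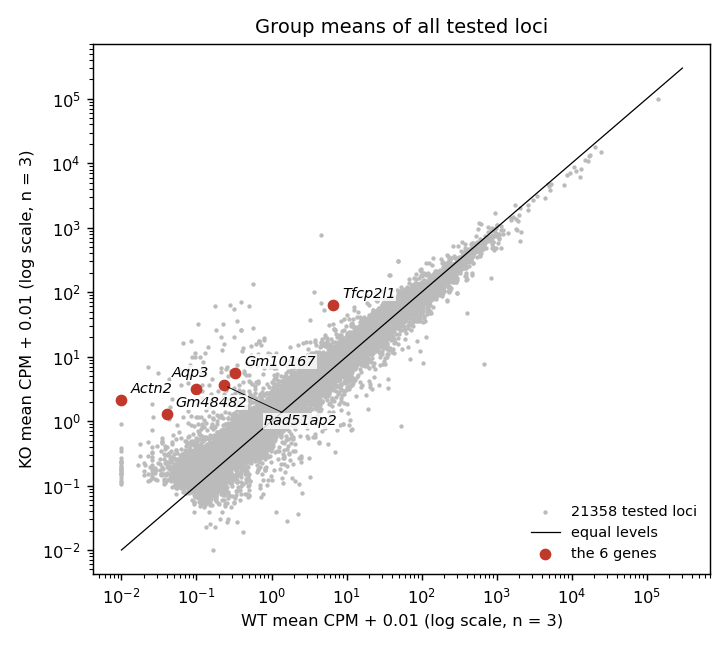
Mean CPM + 0.01 of the 3 KO libraries (vertical, log scale) against that of the 3 WT libraries (horizontal, log scale) for the 21358 tested loci (grey) and the 6 genes (red); the line marks equal levels. Actn2, Aqp3, Gm48482, Rad51ap2 and Gm10167 sit at the left edge of the cloud, while Tfcp2l1 lies in its middle range.

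The 5 genes other than Tfcp2l1 had at least 1 CPM in every KO library and under 0.5 CPM in every WT library. Taken on group means, with groups that did not overlap, this profile was met by 107 named loci, 0.201% of 53103. Of these, 65 are protein-coding. Some passed 1 CPM mainly through KO replicate 3, the library with hepatocyte signal, such as F12 at KO levels of 0.562, 0.63 and 9.58 CPM. Of the 107, Actn2 alone was at 0 counts in all WT libraries. The mirror profile, a mean under 0.5 CPM in KO and of at least 1 CPM in WT, was met by 25 loci. Without KO replicate 3, 114 loci met the profile and 29 met its mirror.

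The surroundings of the 6 genes were tested, since the choice of genes did not use their values. Mtus2, a tested neighbour, may be an exception, since it overlaps Gm10167 and may share reads that the choice used. Within 500 kb of a start, 54 named loci were tested and 1 was called, at an adjusted p under 0.05 in edgeR's quasi-likelihood fit over all tested loci. Over all tested loci, 1.84% were called, 1.41% higher and 0.431% lower in KO. The median log2 difference of the 54 neighbours was -0.10, with a range of -1.09 to 1.50. At an unadjusted p under 0.05 there were 8 neighbours. The share of all tested loci under that p is not given here, so counts at unadjusted p, also those below, lack a background. DESeq2 called 2 neighbours, where it called 9.98% of its loci, 6.48% higher and 3.51% lower in KO.

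Around Tfcp2l1, the 5 tested neighbours had log2 differences of -0.30 to -0.07 and none was called, nor by DESeq2; 1 had an unadjusted p under 0.05. The nearest tested locus above its start was Gli2, a transcription factor of hedgehog signalling, at 2.56 CPM in KO and 2.69 CPM in WT (log2 -0.07, SE 0.22, edgeR adjusted p = 0.884). The small loci Gm22094 and Gm28882, which lie inside Tfcp2l1, had 0 counts in every library. Around Actn2, 13 loci had log2 differences of -1.09 to 1.11, with 2 at an unadjusted p under 0.05 and none called by edgeR or DESeq2. The nearest tested by start on each side were Gm47021 below (log2 -0.40, SE 0.33, edgeR adjusted p = 0.51) and Gm5445 above (log2 -0.45, SE 0.29, edgeR adjusted p = 0.401).

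Aqp3 lies beside Aqp7, another aquaporin that passes glycerol. Aqp7 was at 1.2 CPM in KO and 1.5 CPM in WT (log2 -0.32, SE 0.36, edgeR adjusted p = 0.633). On the other side, Nol6, a nucleolar protein gene, had 112 CPM in both groups (log2 -0.01, SE 0.09, edgeR adjusted p = 0.975). None of the 23 loci tested around Aqp3 was called by edgeR or DESeq2, and 2 had an unadjusted p under 0.05. Around Rad51ap2, none of 5 tested loci was called by either tool or had an unadjusted p under 0.05. The nearest tested one was Vsnl1, a neuronal calcium sensor gene, at 44.1 CPM in KO and 36.0 CPM in WT (log2 0.29, SE 0.25, edgeR adjusted p = 0.532). Rad51ap2 and Gm48482 are both on chromosome 12, with starts 2672.0 kb apart.

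**Figure D3:**
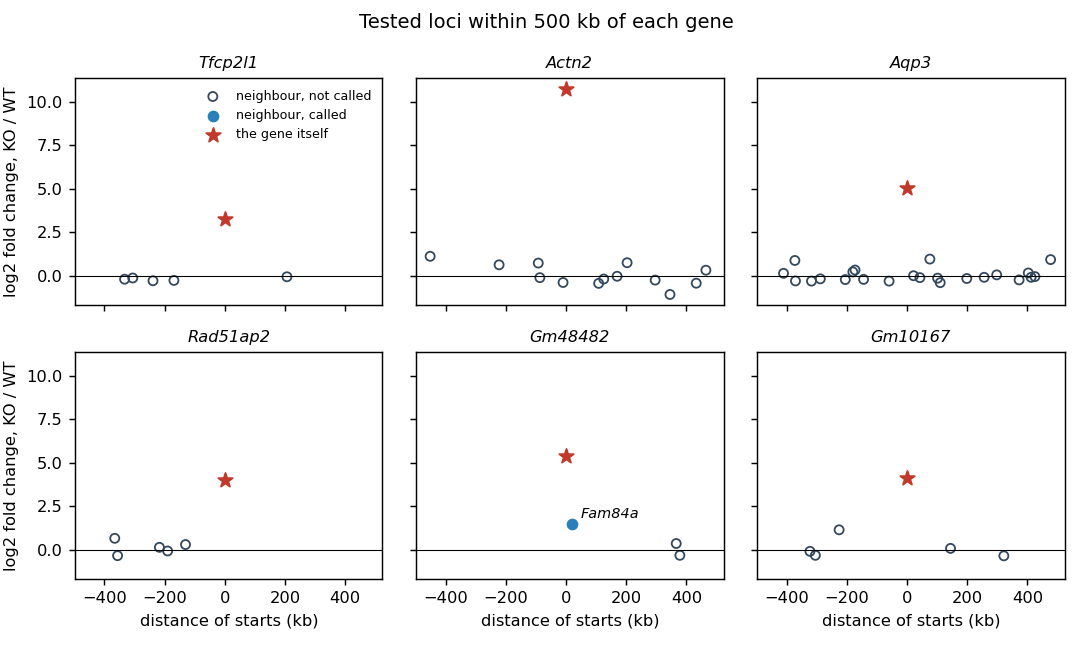
Log2 fold change of KO over WT (vertical) of each tested named locus within 500 kb against the distance of its start coordinate from that of the gene in kb (horizontal), 1 panel per gene. Stars mark the 6 genes, open circles loci not called and the filled circle Fam84a, the 1 neighbour called; the star of Actn2 depends on the fit's prior count because WT is at 0.

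The called neighbour was Fam84a, also known as Lratd1, which starts 18.7 kb from Gm48482 at chr12:14146830-14152054 on the same strand. It had 3414, 2036 and 2664 counts in the KO libraries, against 1077, 998 and 752 in WT. No WT library reached the lowest KO library, and the means were 26.1 ± 5.2 CPM in KO and 9.25 ± 1.46 CPM in WT (SD, n = 3 each). It rose by 1.50 on the log2 scale (SE 0.19, edgeR adjusted p = 0.0274). The call was kept in 2 of 6 fits that left out 1 library: leaving out KO replicate 1 gave an adjusted p of 0.112, KO replicate 2 gave 0.12, KO replicate 3 gave 0.0595 and WT replicate 3 gave 0.129.

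Between Gm48482 and Fam84a lies a locus with no name in the table, at chr12:14140271-14145614 on the same strand. Gaps of 9623 bases to Gm48482 and 1216 bases to Fam84a separate it from them. It had 624, 513 and 536 counts in the KO libraries, against 29, 33 and 6 in WT, with means of 5.51 ± 1.3 CPM in KO and 0.206 ± 0.114 CPM in WT (SD, n = 3 each), a ratio of 26.8. In a fit over 26467 loci with unnamed ones included, in which 1.58% were called, it was higher by 4.68 on the log2 scale (SE 0.51, edgeR adjusted p = 0.0187). It was singled out after its values were seen. Per 100 counts of Fam84a, Gm48482 had 3.87, 5.89 and 5.29 counts in KO and 0.279, 0.301 and 0.399 in WT. The unnamed locus had 18.3, 25.2 and 20.1 in KO and 2.69, 3.31 and 0.798 in WT. The ratios to Fam84a thus did not overlap between groups for either locus. Both loci were picked with their KO levels known, so this is a description and no test. On the minus strand, transcription meets Fam84a first, then the unnamed locus and then Gm48482. Whether the 3 share a transcript was not tested.

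**Figure D4:**
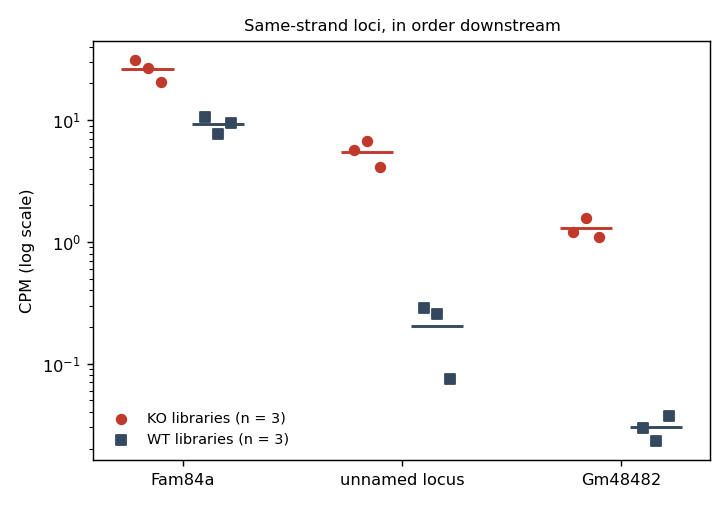
CPM (vertical, log scale) of Fam84a, the unnamed locus and Gm48482 in the KO libraries (red circles) and WT libraries (dark squares), with bars at group means. Fam84a averages 26.1 CPM in KO and 9.25 CPM in WT, with no overlap between groups at any of the 3 loci.

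Gm10167 is annotated as a processed pseudogene, so reads may be shared with near-identical sequence elsewhere and its level is uncertain to that extent. It lies inside Mtus2, a microtubule-associated protein gene on the opposite strand at chr5:147957320-148316065. Mtus2 had 733, 688 and 1027 counts in the KO libraries, against 223, 329 and 479 in WT, with means of 7.87 ± 1.2 CPM in KO and 3.57 ± 2.08 CPM in WT (SD, n = 3 each). WT replicate 3 was the highest WT library and stayed below the lowest KO library. The log2 difference of 1.14 was not called (SE 0.40, edgeR adjusted p = 0.175). The library kit was directional, but whether counting used strand is not given in the sources used here, so reads of Gm10167 and of the overlapping part of Mtus2 cannot be told apart. Of the 5 tested loci within 500 kb of Gm10167, Mtus2 included, none was called by edgeR and 2 had an unadjusted p under 0.05. DESeq2 called 1, which was Mtus2 (DESeq2 adjusted p = 0.0335).

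Relatives and partners of the 4 protein-coding genes were counted in 9 lists, against the 1.84% called over all tested loci and a median log2 difference of -0.01 over them. In these lists 1 gene was called in all, Swi5 of the recombination list. DESeq2 called 5 in the same lists.

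Of the CP2 and grainyhead transcription factors, the family of Tfcp2l1, 3 of 5 genes were tested and none was called by edgeR or DESeq2, with 1 at an unadjusted p under 0.05. Their median log2 difference was -0.03, and 0.19 with total counts as the scale. Ubp1, the closest in p, was at 44.1 CPM in KO and 53.7 CPM in WT (log2 -0.29, edgeR adjusted p = 0.118), while Grhl1 was at 1.03 CPM in KO and 0.684 CPM in WT (log2 0.59, edgeR adjusted p = 0.243). Tfcp2 was at 17.5 CPM in KO and 17.9 CPM in WT (log2 -0.03, edgeR adjusted p = 0.892). Of 13 naive pluripotency genes, 6 were tested and none was called by edgeR, 2 had an unadjusted p under 0.05 and DESeq2 called 1, lower. Klf2, a Kruppel-like factor, was at 32.6 CPM in KO and 51.9 CPM in WT (log2 -0.67, edgeR adjusted p = 0.0836), and Tbx3 at 438 CPM in KO and 528 CPM in WT (log2 -0.27, edgeR adjusted p = 0.172). Nanog, Zfp42 and Fgf4 were at 0 counts in all libraries. The list's median log2 difference was -0.20, and 0.04 with total counts as the scale.

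The aquaporin list held 11 genes other than Aqp3, of which 6 were tested and none was called by edgeR or DESeq2; 1 had an unadjusted p under 0.05 and the median log2 difference was 0.12. Aqp11, an aquaporin of intracellular membranes, was at 5.88 CPM in KO and 3.61 CPM in WT (log2 0.70, edgeR adjusted p = 0.21). Aqp1 was the most abundant at 63.4 CPM in KO and 53.9 CPM in WT (log2 0.23, edgeR adjusted p = 0.402). The liver aquaporin gene Aqp9 had 11, 7 and 1694 counts in KO and 9, 33 and 9 in WT, and Aqp8 had 0, 0 and 477 in KO and 0, 6 and 0 in WT. Both were high in KO replicate 3, the library with hepatocyte signal, where Aqp3 was the lowest of the KO libraries. Of 6 glycerol-handling genes tested, none was called by edgeR or DESeq2, with 2 at an unadjusted p under 0.05 and a median log2 difference of -0.28. The lipase gene Mgll was at 47.1 CPM in KO and 83.3 CPM in WT (log2 -0.82, edgeR adjusted p = 0.171).

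The 3 other alpha-actinins were not called by edgeR or DESeq2, and 2 had an unadjusted p under 0.05. Actn4, the most abundant, was at 164 CPM in KO and 201 CPM in WT (log2 -0.29, edgeR adjusted p = 0.185), and Actn1 was at 37.5 CPM in KO and 56.1 CPM in WT (log2 -0.58, edgeR adjusted p = 0.275). Actn3, of fast muscle fibres, was at 0.804 CPM in KO and 0.366 CPM in WT (log2 1.13, edgeR adjusted p = 0.145). Of 15 Z-disc genes, 10 were tested and none was called by edgeR, 2 had an unadjusted p under 0.05 and DESeq2 called 1, higher; the median log2 difference was 0.49. The Z-disc scaffold gene Ldb3 had 154, 87 and 205 counts in the KO libraries, against 56, 67 and 64 in WT, without overlap (log2 1.14, edgeR adjusted p = 0.0836). Tcap, the titin cap gene, was at 0.212 CPM in KO and 0.0792 CPM in WT (log2 1.41, edgeR adjusted p = 0.142). Of 4 membrane and synaptic partners, none was called by edgeR, 1 had an unadjusted p under 0.05 and DESeq2 called 1, higher. The glutamate receptor gene Grin1 was at 31.8 CPM in KO and 19.4 CPM in WT (log2 0.71, edgeR adjusted p = 0.0807).

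All 19 genes of a homologous recombination list were tested, and their median log2 difference was 0.03. Swi5, an accessory factor of recombination, was called lower, against 0.431% of all tested loci. It had 68.4, 59.4 and 66.0 CPM in KO, against 110, 90.7 and 99.5 CPM in WT, and the groups did not overlap (log2 -0.63, SE 0.10, edgeR adjusted p = 0.0465). The call was lost with total counts or Rn7sk as the scale, and it was kept in 1 of 6 fits that left out 1 library, with adjusted p from 0.0412 to 0.165. Zswim7, of the Shu complex of recombination, was at 4.67 CPM in KO and 7.28 CPM in WT (log2 -0.64, edgeR adjusted p = 0.0921). Of 16 meiosis genes, 9 were tested and none was called by edgeR or DESeq2, with 2 at an unadjusted p under 0.05 and a median log2 difference of 0.26. Mei4, of meiotic break formation, was at 2.9 CPM in KO and 1.55 CPM in WT (log2 0.90, edgeR adjusted p = 0.174), and Syce2, of the synaptonemal complex, was at 1.13 CPM in KO and 2.17 CPM in WT (log2 -0.95, edgeR adjusted p = 0.22).

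**Figure D5:**
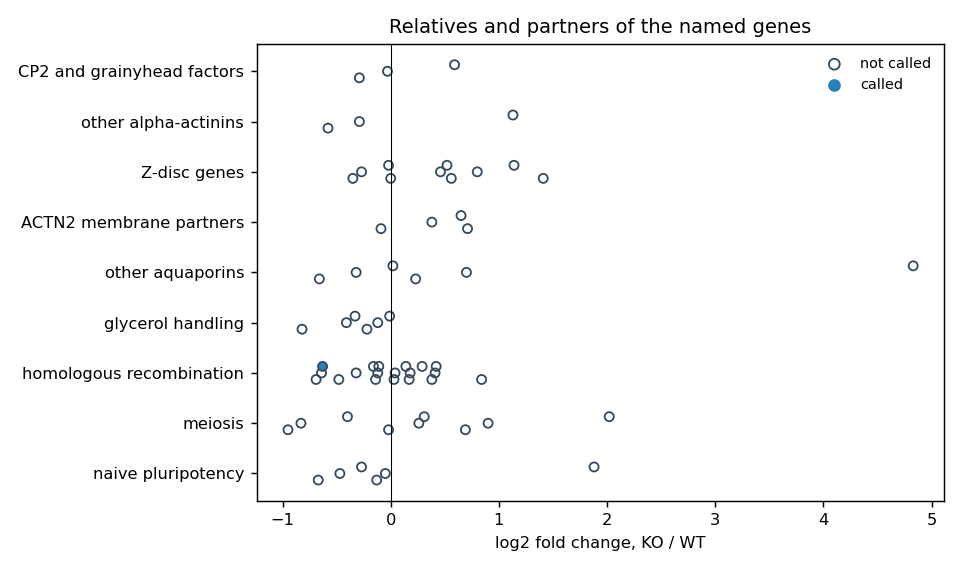
Log2 fold change of KO over WT (horizontal) of each tested gene in 9 lists of relatives and partners, 1 row per list, with points spread vertically only to separate them. The filled point is Swi5 at -0.63, the 1 gene called, and the rightmost point is Aqp9, which is high in KO replicate 3 alone.

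Markers of other cell types that express the 6 genes elsewhere were examined beside them, and their part in the members' levels was not tested. Of 14 collecting duct genes, which go with Tfcp2l1 and Aqp3 in kidney, Avpr2, Foxi1, Atp6v1b1, Atp6v1g3 and Elf5 were at 0 in all libraries. The list summed to 14.8 to 16.6 CPM in KO and 10.9 to 140 CPM in WT, the highest WT value coming from Atp6v0d2. Of its 5 tested genes 1 was called, Slc26a4, an anion exchanger gene, at 12.7, 12.5 and 12.5 CPM in KO and 7.33, 7.91 and 6.73 CPM in WT (log2 0.78, edgeR adjusted p = 0.0384). That call was kept in 1 of 6 fits that left out 1 library, with adjusted p up to 0.175. Hsd11b2, which inactivates glucocorticoids, was at 1.48 CPM in KO and 0.497 CPM in WT (log2 1.57, edgeR adjusted p = 0.0672). The other 3 tested genes had negative log2 differences: Atp6v0d2 -5.98 (edgeR adjusted p = 0.163), Slc4a1 -2.77 (edgeR adjusted p = 0.185) and Aqp4 -0.66 (edgeR adjusted p = 0.507), each with overlapping groups. The list's median was -0.66, 4 of the 5 had an unadjusted p under 0.05, and DESeq2 called 2 higher and 1 lower. Of 14 simple epithelium genes, 8 were tested and Elf3, an epithelial transcription factor, was called, at 1.31, 1.04 and 0.982 CPM in KO and 0.277, 0.263 and 0.337 CPM in WT (log2 1.93, edgeR adjusted p = 0.0278; kept in 1 of 6 fits that left out 1 library, with adjusted p up to 0.128). Of the 8, 4 had an unadjusted p under 0.05, 7 had a positive log2 difference, DESeq2 called 4 higher and the median was 1.56. The cadherin gene Cdh1 was at 0.371, 0.591 and 1.41 CPM in KO and 0.0889, 0.147 and 0.112 CPM in WT (log2 2.75, edgeR adjusted p = 0.0684). The keratin gene Krt18 was at 0.897, 1.27 and 3.25 CPM in KO and 0.533, 0.24 and 0.237 CPM in WT (log2 2.42, edgeR adjusted p = 0.0961). Neither overlapped between groups, and both were highest in KO replicate 3. Epcam had 0, 0 and 9 counts in KO and 0, 11 and 0 in WT. The list summed to 7.52 to 19.9 CPM in KO, highest in KO replicate 3, and 5.87 to 9.31 CPM in WT.

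Muscle markers, which go with Actn2 elsewhere, had sums of the same order as the 2.09 CPM of Actn2 in KO. The 9 cardiac genes summed to 2.15 to 2.56 CPM in KO and 1.6 to 2.51 CPM in WT, with Nppa and Nppb at 0 in all libraries. Most of each sum came from the row of Tnni3, at 1.49 to 1.56 CPM in KO and 0.889 to 1.85 CPM in WT, which is merged with Dnaaf3, a gene of cilium assembly. Neither of the 2 tested cardiac genes was called by edgeR or DESeq2 or had an unadjusted p under 0.05. The 10 skeletal muscle genes summed to 1.78 to 2.24 CPM in KO and 0.976 to 1.36 CPM in WT, without overlap. The largest part was Actn3, also in the alpha-actinin list, at 0.804 CPM in KO and 0.366 CPM in WT. Acta1 was at 0.173 CPM in KO and 0.225 CPM in WT. Of 5 tested none was called by edgeR or DESeq2, and 2 had an unadjusted p under 0.05. Of the 5, 3 had a positive log2 difference, and the median was 0.45. Mylpf was at 0.514 CPM in KO and 0.136 CPM in WT (log2 1.93, edgeR adjusted p = 0.151), and Tnni2 had a log2 difference of -1.15 (edgeR adjusted p = 0.247). Oviduct genes summed to 29.8 to 38.6 CPM in KO and 36.5 to 41.5 CPM in WT. Most of this was the row of Ovgp1, at 24.0 to 27.6 CPM in KO and 27.9 to 31.2 CPM in WT, which is merged with Wdr77, while Pax8 was at 0 in all libraries. Of 3 tested oviduct genes none was called by edgeR or DESeq2 or had an unadjusted p under 0.05.

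Multiciliated cell markers summed to 14.0 to 17.3 CPM in KO and 4.2 to 5.85 CPM in WT. Of 8 tested, Ccno, which drives the making of many centrioles, and Foxj1, the master factor of motile cilia, were called by edgeR and by DESeq2. The 8 had a median log2 difference of 1.11, and 5 had an unadjusted p under 0.05. Ccno had 476, 484 and 635 counts in the KO libraries, against 45, 66 and 30 in WT (log2 3.54, edgeR adjusted p = 0.00648), and its call was kept in 6 of 6 fits that left out 1 library. Foxj1 had 279, 222 and 313 counts in the KO libraries, against 30, 9 and 6 in WT (log2 4.14, edgeR adjusted p = 0.0358; kept in 2 of 6 such fits, with adjusted p up to 0.137). Chromaffin genes of the adrenal medulla summed to 3690 to 4090 CPM in KO and 1780 to 2550 CPM in WT, and Chga (log2 0.87, edgeR adjusted p = 0.044) and Dbh (log2 0.79, edgeR adjusted p = 0.0464) were called among 6 tested. All 6 had an unadjusted p under 0.05 and were called higher by DESeq2. Each of the 2 calls was kept in 1 of 6 fits that left out 1 library. The mean chromaffin sum in KO was 1.84 times that in WT, and its part in the levels of the 6 genes was not tested. None of the 7 adrenal cortex genes was called by edgeR; 4 were at an unadjusted p under 0.05, 2 were called lower by DESeq2, and the median log2 difference was -0.58. None of 5 tested hepatocyte genes was called by edgeR or DESeq2, with 2 at an unadjusted p under 0.05.

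The other named loci with the most similar profiles were taken by the Euclidean distance of log2(CPM + 0.1) centred on its mean over the 6 libraries, where 0 means identical profiles. The choice of offset decides this ranking: of the 18 places (3 for each gene), 5 went to the same loci with an offset of 0.03 CPM and 1 with an offset of 1 CPM, settings tried after the data were seen. The distances below are therefore a description at an offset of 0.1 CPM, which is above the WT levels of Actn2, Aqp3 and Gm48482. The closest to Tfcp2l1 were Duoxa1 at 0.424, Ccno at 0.49 and C2cd4b at 0.535. The same Duoxa1 was closest to Rad51ap2 at 0.348 and to Gm48482 at 0.37, and it was among the 3 closest to Gm10167 at 0.735. It encodes the maturation factor of the oxidase DUOX1, which makes hydrogen peroxide at epithelial surfaces, and it had 114, 74 and 92 counts in KO and 0 in each WT library. With the floor of 9 counts over the WT group put in place of 0, its ratio was 30.6.

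Duox2, a neighbour of Duoxa1 on chromosome 2 that encodes a related oxidase, was the closest to Gm10167 at 0.619, and it was among the 3 closest to Rad51ap2 at 0.522 and to Aqp3 at 0.888. It had 187, 149 and 176 counts in the KO libraries, against 0, 5 and 5 in WT. For Aqp3 the closest were 4930417O13Rik at 0.349 and Gm49774 at 0.628, which like Aqp3 had their highest WT count in replicate 2. The nearest to Actn2 were farther off: 4930560O18Rik at 0.932, 4930417O13Rik at 1.17 and the small nuclear RNA gene Rnu1b1 at 1.25, whose near-identical copies make its counts uncertain. The locus 4930445N18Rik was among the 3 closest to Rad51ap2, Gm48482 and Gm10167, and Ccno also to Gm48482 at 0.457. At the offset of 0.1 CPM, Rad51ap2 and Gm48482 were the closest pair among the 6 genes at 0.343, and Actn2 and Gm48482 the farthest at 1.58. Distances of these pairs at other offsets are not given here. The fitted log2 differences were 3.99 for Rad51ap2 and 5.39 for Gm48482. All these loci share the same 6 libraries.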

How the data were processed

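Total RNA of whole adrenal glands was depleted of ribosomal RNA and made into directional paired-end libraries, per the labels' protocols. Trimmomatic, STAR, Picard, StringTie and edgeR, and the build GRCm38, are named in the submitters' processing notes, with no versions or settings used here. From the deposited table, the counts per locus, not normalized, and the locus length were used. The 6596 loci without a name held 1.392% to 2.045% of counts and entered neither library sizes nor tests. edgeR 4.0.16 (R 4.3.3) scaled the counts by TMM, kept 21358 named loci by filterByExpr and tested KO against WT, two-sided, by the quasi-likelihood test with Benjamini-Hochberg adjustment; a locus was called at an adjusted p under 0.05. The fit was tested on simulated data. DESeq2 1.42.0, other scalings, filters, a replicate block and leaving out each library were alternatives.

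The 6 genes, gene lists and motifs were chosen with earlier results of these data known. Named loci are the 6 genes, Armc5, called, overlapping and nearest tested neighbours, the called and lowest-p genes of each list, and the 3 most similar profiles of each gene. Because 1 read pair adds close to 3 counts, the floor was changed from 3 counts to 9 counts over the group, and exact (Clopper-Pearson) 95% intervals used counts divided by 3. Promoters are from RefSeq; gene models are from GENCODE M21, whose coordinates equal the table's for all 6 genes. Some loci are not reported here.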

Additional observations from a re-analysis of the deposited data

How the results depend on the processing

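Each of the 6 genes kept its direction under the 13 alternatives run for it, which leave out the filter at 10 CPM. The choice of genes with large differences set this outcome, so it is no test of them. Fitted log2 differences were 3.20 to 3.51 for Tfcp2l1, 4.78 to 5.95 for Aqp3 and 3.91 to 4.22 for Rad51ap2. They were 5.23 to 5.62 for Gm48482 and 3.99 to 4.38 for Gm10167. Those of Actn2, 10.17 to 11.07, depend on how a fit treats 0 WT counts. Counts of calls were unstable, and the cause was not tested. All tested named loci gave 393 calls, 674 scaled by total counts, 711 by equal Rn7sk counts, 2155 by DESeq2 and 15 to 644 leaving out 1 library (644 without WT replicate 2, 37 without KO replicate 3). The neighbours gave 1 call, 2 by DESeq2, 2 within 1 Mb and 0 to 2 leaving out 1 library. The listed genes gave 1 call, 0 by total counts, 0 by Rn7sk, 5 by DESeq2 and 0 to 3 leaving out 1 library. The profile of group means of at least 1 CPM in KO and under 0.5 CPM in WT held 107 loci. It held 167 by total counts, 161 by Rn7sk, 197 with unnamed loci, 34 under 0.25 CPM and 36 at 2 CPM or more. It held 108 to 161 leaving out 1 library. Its mirror held 25 loci, 14 by total counts, 16 by Rn7sk, 12 under 0.25 CPM, 7 at 2 CPM or more and 29 to 62 leaving out 1 library. The split of calls was 301 higher and 92 lower in KO, against 639 and 35 by total counts and 669 and 42 by Rn7sk. Total counts moved the median log2 difference of all tested loci to 0.22, and Rn7sk to 0.19. With the replicate number as a block there were 5 calls over all loci, 0 among neighbours and 0 among listed genes, and the marker calls of Ccno (adjusted p 0.101), Foxj1 (0.124), Elf3 (0.139), Slc26a4 (0.145), Dbh (0.134) and Chga (0.144) were lost. Samples with the same number did not deviate together (correlations -0.0857, 0.0118 and -0.142). The numbers thus gave no sign of pairing, which a check on 3 samples per group cannot exclude. WT counts of 0 to 35 per library, in the genes other than Tfcp2l1, limit the ratios.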
